A study of Saccharomyces cerevisiae with 18 samples.

Results

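Divergent promoter peaks are stretches of open chromatin in budding yeast that lie close to the starts of protein-coding genes read in opposite directions. Of the 2086 peaks in the deposited count table, 650 met the rule used here. Each is a nuclear peak outside the ribosomal DNA, lies within 500 bp of the annotated 5′ end of at least 1 coding gene on the W strand and at least 1 on the C strand of the R64 assembly, and has no transfer RNA gene within 100 bp. They are set beside 971 nuclear peaks that link to coding genes on 1 strand only. A further 215 peaks near a transfer RNA gene, 206 linked to no coding gene, 32 mitochondrial and 12 ribosomal DNA peaks stand outside both classes. The rule uses position alone and no measured level.

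The data are from ATAC-seq, in which a transposase cuts accessible DNA, on formaldehyde-fixed Saccharomyces cerevisiae cells drawn from a fermenter at 18 successive stages of the metabolic cycle. By their labels, 5 libraries are Oxidative (time points 6 to 10), 5 are Reductive Building (11 to 15) and 8 are Reductive Charging (1 to 5 and again 16 to 18). They name neither strain nor genotype nor any treatment, and they do not say that any libraries came from separate cultures. Every p-value below therefore measures only the spread between time points within a phase.

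In 13 libraries at most 10% of nuclear peaks had 0 counts, and the main comparisons use these: all 5 Oxidative ones, 2 from Reductive Building (time points 12 and 14) and 6 from Reductive Charging (1 to 5 and 17). Their total counts ran from 6372179 to 29314373. At most 9 divergent peaks were empty in any of them, against 73 to 541 in the other 5 libraries. The mitochondrial share of counts was 46.7% to 65.5% in the Reductive Charging libraries and 16.0% to 46.7% in the Oxidative ones, so it moved with phase, and its part in the results was not tested. Samples were collected in 2 batches that the labels do not assign to libraries, so batch and phase cannot be told apart.

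The yeast genome is compact, and neighbouring genes often point away from each other with a single intergenic region between their starts. That region can hold 2 core promoters or serve both genes through shared upstream sites, as in the classical GAL1-GAL10 and histone gene pairs. Nucleosome-depleted DNA there is cut readily by the transposase, and a peak that spans it cannot be assigned to 1 of the 2 genes. The metabolic cycle is a rhythm of oxygen use in continuous culture. In expression studies, genes for ribosomes and translation are known to peak in the oxidative phase, histone and cell division genes around reductive building, and stress, storage and peroxisomal genes in reductive charging.

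Most divergent peaks sat squarely between 2 gene starts. The 650 peaks linked to 1407 genes: 545 had 1 gene on each strand and 105 had more than 2 genes. In 644 at least 1 linked C gene and 1 linked W gene stood back to back, giving 642 distinct pairs. In the other 6 all such genes overlapped or faced each other. Where a peak allowed several back-to-back pairs, those with the fewest other coding genes between were preferred, then the gap centred nearest the peak midpoint. The pair named is therefore not always that of the nearest genes. No other coding gene lay in the gap for 637. At least 1 of the 2 genes lacked a standard name in 145 pairs, and neither had one in 10.

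The gap between the 2 coding 5′ ends had a median of 613.5 bp (interquartile range 437.75 to 803.75, range 11 to 2346). The peak covered a median of 85.4% of that gap, and at least 50% of it in 561 pairs. Both 5′ ends fell inside the peak in 179 pairs (27.8%). The peak midpoint lay in the gap in 526 pairs and beyond one of its ends in 118. With the C gene's start set at 0 and the W gene's at 1, the median midpoint was 0.51, and 260 midpoints lay between 0.4 and 0.6. In 13 pairs the peak touched no base of the gap and lay wholly beyond one of its ends. Over chromosomes, divergent peaks made up 40.1% of linked peaks, from 31.8% of 22 on chromosome I to 44.7% of 76 on chromosome XI.

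**Figure D1:**
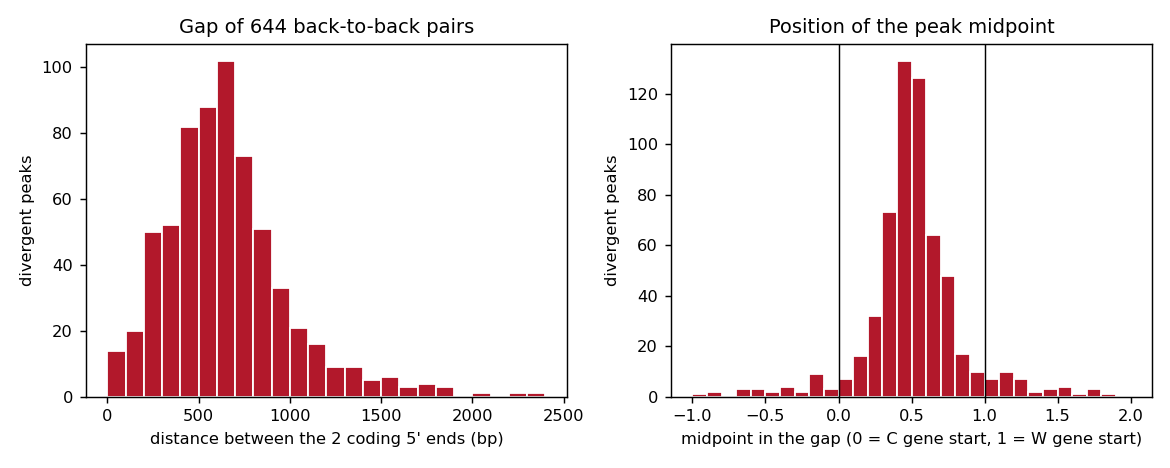
Distance between the 2 coding 5′ ends (left, in bp) and relative position of the peak midpoint in that gap (right, 0 at the C gene's start and 1 at the W gene's), as counts of the 644 back-to-back divergent peaks; 51 midpoints beyond the drawn axis are not shown at right. The gaps centre on a median of 613.5 bp and the midpoints on 0.51.

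The setting of the one-strand peaks was different. The midpoint of 642 lay in a gap between genes pointing the same way, 201 lay inside a gene, 115 lay in a back-to-back gap with only 1 gene start in reach, and 13 lay elsewhere. Another RNA gene lay within 100 bp of 15 divergent and 32 one-strand peaks.

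Divergent peaks were longer and held more signal than one-strand peaks, but levels were close at similar length. Median length was 664.5 bp (interquartile range 473.75 to 970.75) against 578 bp (416 to 838.5), a ratio of 1.15. Level here is the CPM, the counts scaled to a common library size by edgeR's TMM method,, averaged over the 13 libraries. Its median was 75.8 CPM (32.7 to 255) for divergent and 55.2 CPM (26.4 to 169) for one-strand peaks, a ratio of 1.37. Per kb of peak the medians were 112 and 100 CPM, a ratio of 1.12.

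The ratio of median levels was above 1 in each of the 13 libraries, at 1.40 ± 0.07 (SD, n = 13; range 1.27 to 1.49). It was 1.39 ± 0.06 in Reductive Charging (n = 6), 1.41 ± 0.08 in Oxidative (n = 5) and 1.42 ± 0.10 in Reductive Building (n = 2). Divergent peaks took 39.9% ± 1.12 of nuclear peak counts (SD, n = 13; range 37.4% to 41.8%). Neither value was shown to differ between phases. Of 6 two-sided exact permutation tests, the smallest p was 0.0714, for the count share in Reductive Charging (39.8%) against Reductive Building (38.4%), which is 0.429 after Benjamini-Hochberg adjustment over the 6. That p is the smallest its 28 arrangements allow, so no comparison with Reductive Building could reach 0.05.

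Within bins of peak length the 2 classes lay close together. Up to 400 bp the median was 18.9 CPM for 113 divergent and 18.2 CPM for 232 one-strand peaks. Over 400 and up to 600 bp it was 38.6 CPM (n = 148) against 41.9 CPM (n = 288). Over 600 and up to 900 bp it was 118 CPM (n = 201) against 114 CPM (n = 246). Above 900 bp it was 341 CPM (n = 188) against 337 CPM (n = 205). The divergent class was thus higher in 3 bins and lower in 1, by small amounts each time. Length and level were closely tied (Spearman's rho 0.88 over the 650 divergent peaks), so a split by length is largely a split by level. Close medians within bins therefore do not settle whether the classes differ in level.

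The rule itself favours long peaks, because a longer interval reaches 2 gene starts more easily. Measured from the peak midpoint instead, where length does not enter directly, 394 of the 650 stayed divergent. That rule selects in its own way, because 2 starts over 1000 bp apart cannot both lie within 500 bp of 1 point. Peaks of such pairs were long and strong, with medians of 1075 bp and 316 CPM (n = 79). The ratio of median levels then turned to 0.895, that of levels per kb to 0.898 and that of lengths to 0.975. The higher signal of divergent peaks was thus seen with distances from the peak's edges and not from its midpoint. Because each rule selects peaks differently, the 2 results do not settle whether the classes differ in level. At the edge of the rule the values were alike: 23 peaks whose farther gene start was over 400 and up to 500 bp away had a median of 35.4 CPM and 485 bp, and 28 peaks whose farther start was over 500 and up to 600 bp away had 32.3 CPM and 532 bp.

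**Figure D2:**
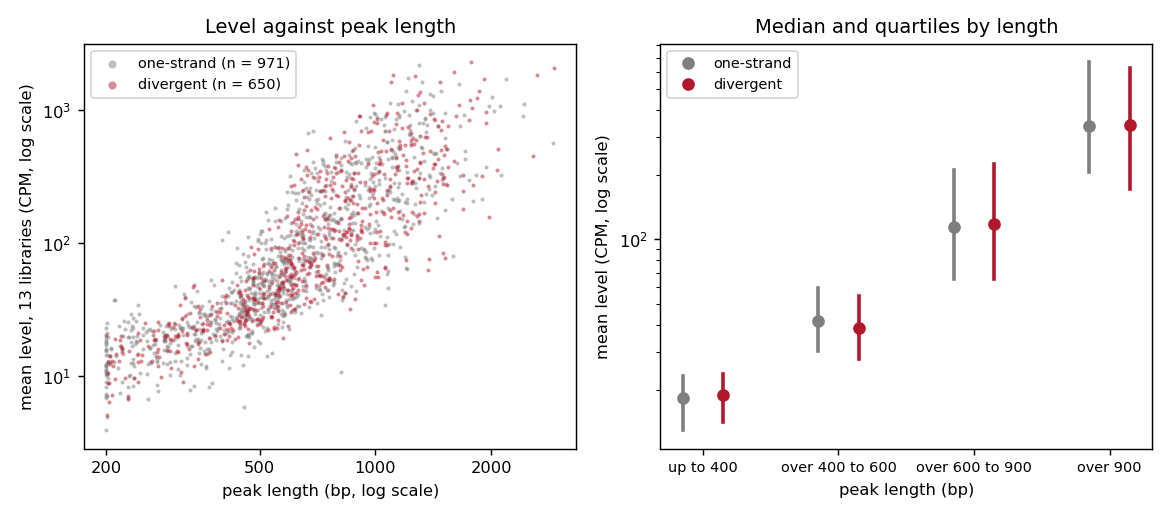
Mean level over 13 libraries (CPM, log scale) against peak length (bp) for 650 divergent and 971 one-strand peaks (left, log scale), and the median (point) and quartiles (bar) of level by length bin (right). The medians of the 2 classes lie side by side in every length bin, from 18.9 and 18.2 CPM up to 400 bp to 341 and 337 CPM above 900 bp.

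Among the members, level followed length and, less closely, the gap. Spearman's rho over the 650 peaks was 0.88 between length and level, and over the 644 pairs 0.30 between gap and level. These are descriptions across peaks, which share libraries and the call of their borders. Pairs with a gap over 300 and up to 500 bp had the lowest median (40.8 CPM, n = 135). Pairs over 1000 bp apart had the highest (316 CPM, n = 79), and the rule asks for a longer peak the farther a gap exceeds 1000 bp.

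Divergent peaks also varied less between libraries at first sight. The median SD of log2 level over the 13 libraries was 0.58 against 0.67 in one-strand peaks. The divergent and one-strand peaks were then split together into 3 equal classes of level. There the medians were 1.09 against 1.13 in the lowest class, 0.62 against 0.62 in the middle one and 0.37 against 0.37 in the highest. The class difference of −0.09 became 0.0075 with distances from the midpoint and −0.019 with all 18 libraries.

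Phase changes were about as common at divergent promoters as elsewhere. In edgeR's quasi-likelihood test with Benjamini-Hochberg adjustment over all 2086 peaks, 20 of the 650 differed between any of the 3 phases (3.08%, background 2.78%). Of one-strand peaks 31 did (3.19%). Between pairs of phases, 34 divergent peaks were called at least once. By level class these were 0 of 188 in the lowest, 9 of 210 in the middle and 25 of 252 in the highest. The matching union and split were not counted over all peaks, so whether they are particular to divergent peaks cannot be told. Their median level was 269 CPM and their median gap 715 bp.

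With the 5 thinly covered libraries included, edgeR called 0 peaks in every comparison. Unadjusted p lay under 0.05 for 26 divergent peaks in the test of any difference, 11 in Oxidative against Reductive Charging, 17 in Reductive Building against Oxidative and 36 in Reductive Charging against Reductive Building. These are 4.00%, 1.69%, 2.62% and 5.54% of the 650, below the 5.42%, 2.49%, 4.84% and 7.14% of all peaks. On the 13 libraries DESeq2, which gives no adjusted p for part of the peaks, called 69 of 610, 41 of 461, 38 of 650 and 21 of 507 divergent peaks in the same order. These are shares of 11.3%, 8.89%, 5.85% and 4.14% beside 10%, 9.43%, 4.99% and 3.62% of all peaks with an adjusted p. By limma-voom 25, 13, 24 and 10 of the 650 were called, or 3.85%, 2.00%, 3.69% and 1.54%, beside 4.22%, 2.78%, 2.92% and 0.911% of all peaks.

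Between Oxidative and Reductive Charging, 21 divergent peaks differed, 13 higher and 8 lower in Oxidative. That is 3.23% of the 650 beside a background of 2.78% of all peaks (1.49% higher, 1.29% lower). The higher group included promoters of histone genes, a zinc transporter, the alpha-factor receptor and a repressor of ribosome biogenesis genes. The lower group included promoters of stress proteins and of a stress-induced repressor. The median log2 difference over all divergent peaks was 0.01. Groups did not overlap in 13 of the 21, and in 28 of all 650 (4.31%, the same as the background of 4.31%).

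These calls depended on single libraries. Without time point 1, 2 or 4 of Reductive Charging the count was 2, and without time point 3 or 5 it was 4. Without time point 8 or 9 of Oxidative it was 2, without time point 10 it was 1, and without time point 6 it was 35. Scaling by nuclear peak totals gave 19 calls, 14 higher and 5 lower, and limma-voom gave 13, 6 higher and 7 lower (2.00%, background 2.78%).

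**Figure D3:**
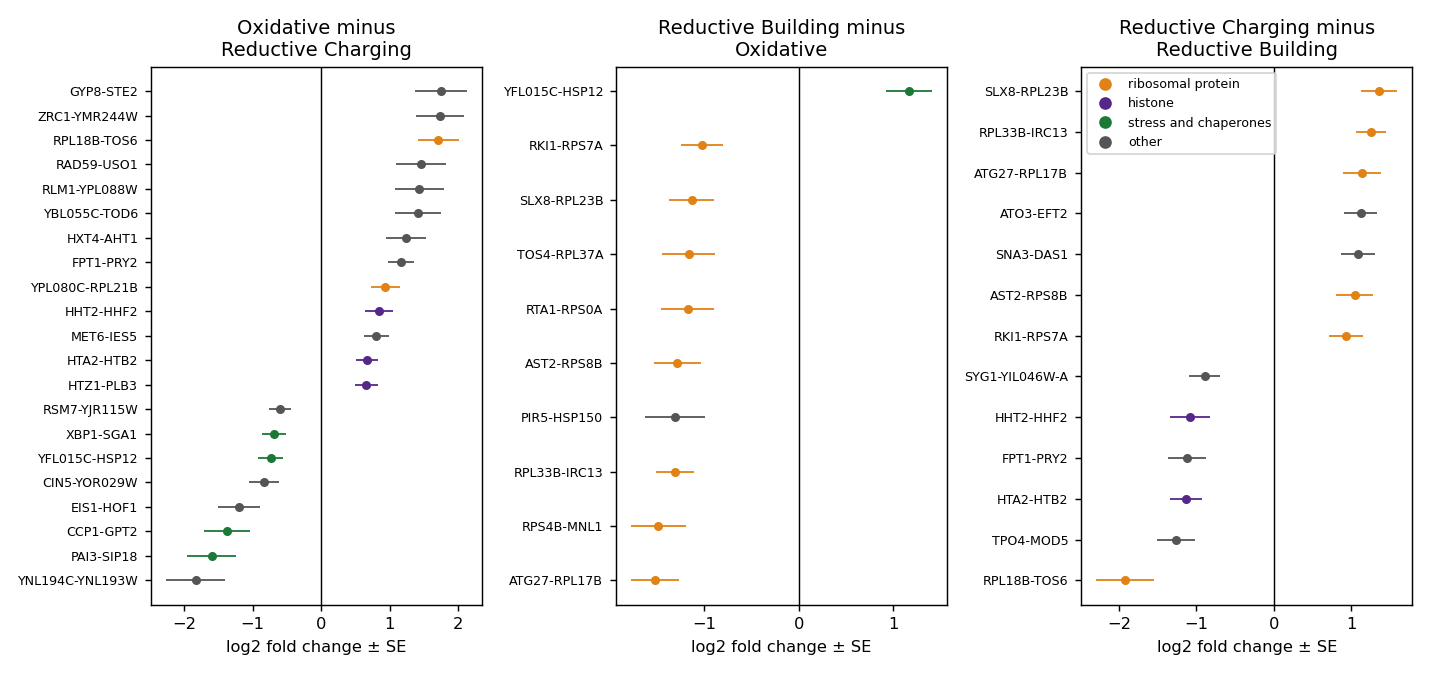
Log2 fold changes (points) with their standard errors (bars) of every divergent peak called by edgeR in each phase pair: 21, 10 and 13 peaks from left to right. Ribosomal protein promoters make up 8 of the 9 lower peaks in the middle panel, and histone promoters are higher in Oxidative at left and lower in Reductive Charging at right.

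The steadiest rise in Oxidative was at FPT1-PRY2 (chromosome XI, 462674 to 463971, a gap of 1262 bp). PRY2 encodes a secreted sterol-binding protein. Reductive Charging libraries ran from 130 to 211 CPM with a median of 195, Oxidative libraries stood at 367, 255, 503, 508 and 455 CPM from time point 6 to 10, and Reductive Building at 461 and 349 CPM. All Reductive Charging libraries were therefore below all others. Its log2 rise in Oxidative was 1.17 ± 0.19 (edgeR adjusted p = 0.0109), called in all 13 fits that each left out 1 library. Reductive Charging was lower than Reductive Building by a log2 fold change of −1.12 ± 0.24 (edgeR adjusted p = 0.0293).

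The same order held at RPL18B-TOS6 (chromosome XIV, 64904 to 65798), shared by a gene for a protein of the large ribosomal subunit and one for a cell wall protein. It measured 21.2 to 81.9 CPM in Reductive Charging with a median of 46.9, then 116, 130, 158, 192 and 194 CPM in Oxidative and 205 and 160 CPM in Reductive Building. Reductive Charging did not overlap Oxidative or Reductive Building, and the lowest library was time point 17. Its log2 fold change was 1.71 ± 0.30 in Oxidative against Reductive Charging (edgeR adjusted p = 0.0118, called in 12 of 13 fits without 1 library) and −1.92 ± 0.37 in Reductive Charging against Reductive Building (edgeR adjusted p = 0.0163).

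ZRC1-YMR244W (chromosome XIII, 756339 to 756873) was highest in Oxidative. ZRC1 encodes the zinc transporter of the vacuole. Levels were 19.4 to 68.5 CPM in Reductive Charging (median 51.3), 98.3, 125, 232, 178 and 187 CPM in Oxidative, and 67.8 and 21.0 CPM in Reductive Building. The log2 fold change of Oxidative against Reductive Charging was 1.74 ± 0.35 (edgeR adjusted p = 0.0315). That of Reductive Building against Oxidative was −1.89 ± 0.54 and did not pass (edgeR adjusted p = 0.0847).

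GYP8-STE2 had the largest log2 fold change among the called rises, 1.75 ± 0.38 (edgeR adjusted p = 0.0426). GYP8 encodes a GTPase-activating protein for Ypt GTPases and STE2 the receptor for alpha-factor. Its Reductive Charging range was 15.0 to 88.1 CPM (median 56.4), and its Oxidative libraries stood at 110, 102, 228, 139 and 314 CPM. No Oxidative library fell into the Reductive Charging range.

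TOD6, beside YBL055C, encodes a repressor of ribosome biogenesis genes that binds the PAC element. Its peak ran from 55.6 to 142 CPM in Reductive Charging (median 91.2), stood at 106, 118, 411, 298 and 321 CPM in Oxidative and at 106 CPM in both Reductive Building libraries. Time points 6 and 7 overlapped the Reductive Charging range and time points 8 to 10 lay far above it. Its log2 rise was 1.41 ± 0.33 (edgeR adjusted p = 0.0426).

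Other rises in Oxidative were at RAD59-USO1 (1.46 ± 0.36), where RAD59 acts in recombination repair and USO1 in vesicle tethering, at RLM1-YPL088W (1.44 ± 0.36), where RLM1 is the transcription factor of the cell wall integrity pathway, and at HXT4-AHT1 (1.24 ± 0.30), where HXT4 is a hexose transporter. Outside the naming rule, RPL21B beside YPL080C (0.94 ± 0.22) and MET6-IES5 (0.81 ± 0.19), which holds the promoter of methionine synthase, were also called. Of these 5, HXT4-AHT1 had groups that overlapped.

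Among the falls in Oxidative was PAI3-SIP18 (chromosome XIII, 610243 to 611040). PAI3 encodes an inhibitor of vacuolar proteinase A, and SIP18 a hydrophilin made under osmotic stress and drying. Levels were 25.7 to 71.0 CPM in Reductive Charging (median 58.3), 17.2, 27.3, 10.9, 14.3 and 21.1 CPM in Oxidative, and 51.8 and 64.8 CPM in Reductive Building. Time point 7 overlapped time point 17, and all other Oxidative libraries lay below Reductive Charging. Its log2 fold change was −1.59 ± 0.36 (edgeR adjusted p = 0.0426).

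The peak between YFL015C and HSP12 (chromosome VI, 106116 to 107260), which also reaches MDJ1, was called in 2 comparisons. HSP12 encodes a small membrane-associated heat shock protein and MDJ1 a mitochondrial chaperone. Reductive Charging libraries ran from 338 to 530 CPM (median 420), Oxidative libraries stood at 343, 291, 194, 266 and 169 CPM, and Reductive Building at 501 and 633 CPM. Oxidative overlapped Reductive Charging only through time point 6 and lay wholly below Reductive Building. The log2 fold changes were −0.74 ± 0.19 in Oxidative against Reductive Charging (edgeR adjusted p = 0.0434) and 1.17 ± 0.24 in Reductive Building against Oxidative (edgeR adjusted p = 0.0216).

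CCP1-GPT2 fell by 1.37 on the log2 scale (SE 0.33). CCP1 is the mitochondrial cytochrome c peroxidase, and GPT2 makes a lipid precursor from glycerol 3-phosphate. Reductive Charging spanned 59.6 to 105 CPM (median 72.8), and the Oxidative libraries stood at 38.3, 47.0, 15.7, 16.6 and 29.5 CPM, all below it. XBP1-SGA1 fell by 0.69 (SE 0.17). XBP1 is a stress-induced transcriptional repressor and SGA1 the sporulation glucoamylase that degrades glycogen. The groups there overlapped through time point 6, at 577 CPM against a Reductive Charging minimum of 567 CPM.

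The remaining falls were at EIS1-HOF1 (−1.20 ± 0.31), with an eisosome protein and a cytokinesis protein, CIN5-YOR029W (−0.83 ± 0.21), with a bZIP transcription factor of the yAP family, and RSM7-YJR115W (−0.60 ± 0.16), with a mitochondrial ribosomal protein. The lowest value belonged to YNL194C-YNL193W, at −1.83 ± 0.43, which lies outside the naming rule because neither gene has a standard name. Its Oxidative libraries stood at 116, 116, 15.2, 35.9 and 32.9 CPM against a Reductive Charging minimum of 140 CPM. Of the 19 divergent peaks with a gene of the stress and chaperone list, 4 fell (PAI3-SIP18, CCP1-GPT2, the HSP12 peak and XBP1-SGA1) and 0 rose in Oxidative by edgeR. Their median log2 difference was −0.58, with 15 of 19 below 0, beside 0.02 over all peaks. The 22 one-strand peaks with such a gene were alike, with 2 falls, 0 rises, a median of −0.51 and 17 below 0.

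The histone genes are a family in which each core gene shares its promoter with a partner. Of the 6 divergent peaks with a histone gene, 3 rose in Oxidative against Reductive Charging, 2 were lower in Reductive Charging than in Reductive Building, and 0 differed between Reductive Building and Oxidative by edgeR. The median log2 difference of Oxidative from Reductive Charging was 0.67, with 6 of 6 above 0 (5 of 6 with all 18 libraries), beside 0.02 over all peaks. No one-strand peak had a histone gene. By limma-voom 0 of the 6 were called in Oxidative against Reductive Charging.

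HTA2-HTB2 (chromosome II, 235720 to 236508, a gap of 699 bp) serves genes for histones H2A and H2B. Reductive Charging ran from 218 to 261 CPM (median 241), Oxidative stood at 324, 267, 466, 340 and 489 CPM, and Reductive Building at 544 and 496 CPM. The 3 phases thus formed 3 steps without overlap, although time point 7 lay only just above the first. In log2 terms the difference was 0.67 ± 0.16 in Oxidative against Reductive Charging (edgeR adjusted p = 0.0426) and −1.13 ± 0.21 in Reductive Charging against Reductive Building (edgeR adjusted p = 0.0163). The second call held in 11 of 13 fits that left out 1 library, the first in 5.

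HHT2-HHF2 (chromosome XIV, 575953 to 576783), the promoter of an H3 and an H4 gene, measured 234 to 366 CPM in Reductive Charging (median 320), 396, 347, 577, 623 and 822 CPM in Oxidative and 615 and 693 CPM in Reductive Building. Time point 7 fell within the Reductive Charging range and all other Oxidative and Reductive Building libraries lay above it. Its log2 fold changes were 0.84 ± 0.20 (edgeR adjusted p = 0.0426) in Oxidative against Reductive Charging and −1.09 ± 0.26 (edgeR adjusted p = 0.0428) in Reductive Charging against Reductive Building.

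The second copies of these pairs had lower levels and did not pass. In Oxidative, HTB1-HTA1 stood at 129, 88.4, 188, 206 and 173 CPM and HHF1-HHT1 at 102, 118, 161, 202 and 222 CPM. Against Reductive Charging, HTB1-HTA1 had a log2 difference of 0.73 ± 0.22 (edgeR adjusted p = 0.0817) and HHF1-HHT1 of 0.66 ± 0.31 (edgeR adjusted p = 0.292). At HHF1-HHT1 the late Reductive Charging library, time point 17, stood at 201 CPM against 66.2 to 105 CPM in the other 5. HTZ1-PLB3, with the gene for the variant H2A.Z, was called in Oxidative (0.66 ± 0.17, edgeR adjusted p = 0.0432). HHO1-NAN1, with the linker histone gene, was not (0.25 ± 0.35, edgeR adjusted p = 0.809).

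**Figure D4:**
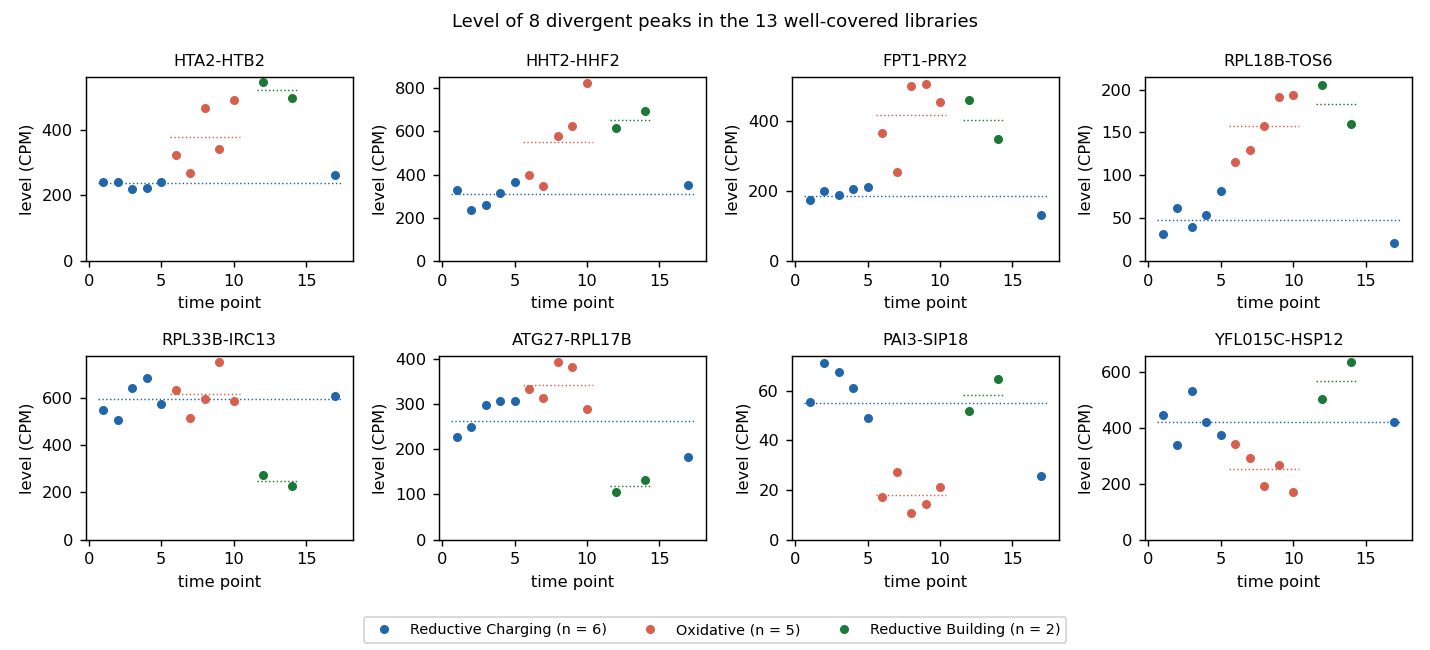
Level (CPM) of 8 divergent peaks at each of the 13 well-covered time points, coloured by phase, with the phase mean as a dotted line. The histone pairs and RPL18B-TOS6 are lowest in Reductive Charging, RPL33B-IRC13 and ATG27-RPL17B are lowest in Reductive Building, and PAI3-SIP18 and the HSP12 peak are lowest in Oxidative.

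Between Reductive Building and Oxidative, the peaks edgeR called at divergent promoters were mostly falls at ribosomal protein genes. Of the 10 peaks called, 9 were lower and 1 was higher in Reductive Building (10.0% higher), whereas limma-voom called 24, 13 lower and 11 higher (45.8% higher). The 10 edgeR calls are 1.54% of the 650 beside an edgeR background of 1.49% of all peaks (0.575% higher, 0.911% lower). Of the 9 that fell, 8 hold the promoter of a cytosolic ribosomal protein gene. Over all 66 divergent peaks with such a gene the median log2 difference was −0.57, with 59 below 0, beside 0.02 over all peaks. The 58 one-strand peaks with such a gene had 4 falls, 0 rises and a median of −0.59.

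The direction was the same under the other scalings and tests: 11 of the 66 fell on DESeq2's size factors, 14 on nuclear totals, 21 by DESeq2 and 11 by limma-voom, and 0 rose. Groups were separate in all 10 called peaks and in 134 of all 650 (20.6%, background 19.8%). Only 2 libraries stand for Reductive Building. Without time point 12 edgeR called 3 divergent peaks, and without time point 14 it called 38. Without time point 17 of Reductive Charging it called 35, without time point 7 of Oxidative 25, without time point 8 it called 5 and without time point 9 it called 6. A fit on these 7 libraries alone called 0 by edgeR.

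RPL33B-IRC13 (chromosome XV, 779296 to 780203, a gap of 464 bp) fell whichever library was left out. Oxidative libraries stood at 633, 513, 594, 750 and 587 CPM, Reductive Building at 272 and 226 CPM, and Reductive Charging at 506 to 685 CPM with a median of 590. Both Reductive Building libraries were far below every other library. The log2 fold change was −1.31 ± 0.20 in Reductive Building against Oxidative (edgeR adjusted p = 0.00482) and 1.25 ± 0.20 in Reductive Charging against Reductive Building (edgeR adjusted p = 0.00721). Both calls held in all 13 fits that left out 1 library.

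ATG27-RPL17B (chromosome X, 89991 to 90808), where ATG27 encodes a membrane protein of autophagy, had the largest fall among the called peaks. It measured 332, 313, 391, 381 and 288 CPM in Oxidative, 106 and 132 CPM in Reductive Building and 183 to 307 CPM in Reductive Charging (median 273). No library of another phase reached the Reductive Building values. The log2 fold change was −1.52 ± 0.25 (edgeR adjusted p = 0.00482), and Reductive Charging was above Reductive Building by 1.14 ± 0.24 (edgeR adjusted p = 0.0274).

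SLX8-RPL23B, where SLX8 encodes part of a SUMO-targeted ubiquitin ligase, stood at 404, 324, 300, 458 and 292 CPM in Oxidative, 154 and 171 CPM in Reductive Building and 323 to 478 CPM in Reductive Charging (median 433). Its log2 fold changes were −1.13 ± 0.24 in Reductive Building against Oxidative and 1.36 ± 0.24 in Reductive Charging against Reductive Building. RPS4B-MNL1, with a gene for a mannosidase-like protein of endoplasmic reticulum quality control, fell by 1.48 (SE 0.29) and was at 124 CPM in both Reductive Building libraries against 234 to 532 CPM in Oxidative. AST2-RPS8B changed by −1.28 ± 0.25, RTA1-RPS0A by −1.17 ± 0.28, TOS4-RPL37A by −1.16 ± 0.28 and RKI1-RPS7A, in which RKI1 is ribose-5-phosphate isomerase, by −1.03 ± 0.22.

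The ninth fall was at PIR5-HSP150 (−1.30 ± 0.32), which serves 2 genes of the PIR family of cell wall proteins. The rise was at the HSP12 peak described above.

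Where both genes of a pair code for ribosomal proteins, all 5 peaks had lower values in Reductive Building than in Oxidative, and none passed. The log2 differences were −1.01 ± 0.26 at RPL24A-RPL30 (edgeR adjusted p = 0.0507), −0.80 ± 0.24 at RPS22A-RPL39, −0.63 ± 0.30 at RPL13B-RPS16A, −0.54 ± 0.23 at RPS15-RPP2A and −0.45 ± 0.21 at RPS16B-RPL13A. With the 4 core histone pairs and PAI3-SIP18, these make the 10 divergent peaks in which both genes belong to the same functional list.

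Between Reductive Charging and Reductive Building, 13 divergent peaks differed, 7 higher and 6 lower in Reductive Charging. That is 2.00% of the 650 beside a background of 1.44% of all peaks (0.767% higher, 0.671% lower). Ribosomal protein promoters made up 5 of the 7 and 1 of the 6, and histone promoters 2 of the 6. This comparison shares its libraries with the other 2, so the ribosomal and histone calls are not separate evidence. Groups were separate in all 13 and in 120 of all 650 (18.5%, background 19.6%).

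Again single libraries carried much of the count. Without time point 12 edgeR called 2 divergent peaks and without time point 14 it called 55. Without time point 3 it called 2, without time point 1 it called 8, and without time point 2 or 4 it called 7. A fit on the 2 groups alone gave 7.

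Among the higher peaks, ATO3-EFT2 (chromosome IV, 1242077 to 1243267) pairs a gene of the acetate and ammonium transporter family with a gene for translation elongation factor 2. Reductive Charging spanned 620 to 708 CPM (median 676), Oxidative stood at 559, 576, 473, 497 and 354 CPM, and Reductive Building at 248 and 366 CPM. Reductive Charging lay above every other library. Over Reductive Building the log2 fold change was 1.12 ± 0.21 (edgeR adjusted p = 0.0163).

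SNA3-DAS1, a peak that also reaches INO1, the inositol-3-phosphate synthase gene, was close behind at 1.09 ± 0.21 (edgeR adjusted p = 0.0163). It ran from 286 to 375 CPM in Reductive Charging (median 330), stood at 285, 271, 244, 208 and 234 CPM in Oxidative and at 135 and 177 CPM in Reductive Building. The phases were stepped without overlap.

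Among the lower peaks, TPO4-MOD5 (−1.27 ± 0.25, edgeR adjusted p = 0.0163) pairs a polyamine exporter with a transfer RNA modifying enzyme. It ran from 93.7 to 157 CPM in Reductive Charging (median 132), stood at 144, 161, 211, 117 and 172 CPM in Oxidative and at 286 and 350 CPM in Reductive Building, so that Reductive Building stood alone. The peak at SYG1 that also reaches MET30, which encodes an F-box protein controlling sulfur metabolism, was lower by −0.89 ± 0.20 (edgeR adjusted p = 0.0398). It read 181 to 261 CPM in Reductive Charging and 381 and 489 CPM in Reductive Building.

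In the other functional lists few divergent peaks passed edgeR's test in any phase pair. Of 12 peaks with a mitochondrial ribosome gene, 1 fell in Oxidative (RSM7-YJR115W). Of 19 with an amino acid gene and 12 with a sulfur gene, 1 rose there (MET6-IES5, in both lists). The MET30 peak is also in the sulfur list. ATO3-EFT2 was the 1 call among 11 peaks with a gene of the glyoxylate, gluconeogenesis and acetyl-CoA list and among 6 with a translation factor gene.

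None passed among 19 peaks with a ribosome biogenesis gene, 13 of the respiratory chain, 11 of the proteasome, 8 of the citric acid cycle, 7 of glycolysis, 7 of the cell cycle and DNA replication and 5 of trehalose and glycogen metabolism. The median log2 difference of Oxidative from Reductive Charging was −0.47 over the glycolysis peaks, 7 of 7 below 0, and −0.41 over the glyoxylate list, 10 of 11 below 0, beside 0.02 over all peaks. One-strand peaks of the glyoxylate list had a median of −0.61, with 16 of 16 below 0. Those of the glycolysis list had a median of −0.001, with 6 of 12 below 0.

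Textbook divergent pairs other than the histones showed no phase call. GAL10-GAL1 (chromosome II, 278345 to 278902), which serves the enzymes of galactose use, spanned 30.4 to 111 CPM in Reductive Charging (median 84.4), stood at 88.1, 86.5, 118, 163 and 86.1 CPM in Oxidative and at 47.5 and 122 CPM in Reductive Building. The phases overlapped (Oxidative against Reductive Charging 0.44 ± 0.33, edgeR adjusted p = 0.560). The MAL31-MAL32 peak, at maltose permease and maltase genes, had a difference of −0.90 ± 0.36 (edgeR adjusted p = 0.209). SNO2-SNZ2 and SNO3-SNZ3, of vitamin B6 synthesis, averaged 23.2 and 23.8 CPM. These 2 pairs are near-identical copies between which the counting could split reads, so their values are uncertain. No peak linked to SNZ1-SNO1, and none linked to both HIS4 and BIK1.

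The strongest divergent peaks were long. The highest, at 2291 CPM, lies on chromosome VII from 383492 to 385259. It links to MRH4, a mitochondrial RNA helicase gene, PUS2, a pseudouridine synthase gene, and PYC1, a pyruvate carboxylase gene, and it covers 36.4% of the gap between MRH4 and PUS2. Next came the peak at PUT4, CIN1 and PYK2 (chromosome XV, 986908 to 989821), with the proline permease and the second pyruvate kinase, at 2087 CPM. Its 2914 bp make it the longest of the 650.

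SKS1-RMI1 followed at 1925 CPM, FRS2-GAT1 at 1856 CPM, the YAT1 and SWH1 peak at 1843 CPM, the MDY2, SHR5 and ZEO1 peak at 1807 CPM, KTI12-HAP4 at 1711 CPM and the SOH1, SCS3 and MET13 peak at 1639 CPM. GAT1 is an activator of nitrogen-regulated genes, HAP4 the activating subunit of the regulator of respiratory genes, and MET13 a methylenetetrahydrofolate reductase. KTI12-HAP4 also has the widest gap, 2346 bp. The SWH1 peak covered 0% of its gap and the MET13 peak 3.17%, so both lie mainly outside it. The SD of log2 level was 0.20 to 0.42 in these 8, beside a median of 0.37 over divergent peaks of the highest of 3 level classes. Time point 17 stood far above the other Reductive Charging libraries at SKS1-RMI1, the SWH1 peak and the MET13 peak. None of the 8 was called in any comparison by edgeR.

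The most variable divergent peaks were short and thinly counted. Among those with a mean of at least 100 counts, the largest SD of log2 level was 3.16 at RAD53-YPL152W-A, then 2.82 at ICP55-YER078W-A, 2.69 at MET32-CHL4, 2.58 at MXR2-STE50, 2.56 at PUP1-PET123, 2.54 at CDC3-NKP2, 2.53 at YRR1-DDP1 and 2.46 at SKT5-YEL1. RAD53 is a DNA damage checkpoint kinase gene, MET32 a regulator of sulfur genes, STE50 an adaptor of signalling kinases and PUP1 a proteasome subunit gene. The 8 peaks were 201 to 357 bp long and averaged 5.05 to 24.7 CPM. RAD53-YPL152W-A had 0 counts in 4 of the 13 libraries and 965 at its highest, and SKT5-YEL1 ranged from 1 to 731 counts. None was called by edgeR.

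Level and variability ran in opposite directions over the 650 peaks (Spearman's rho −0.81, a description across peaks that share libraries). Among the 50 most variable, the lowest library was time point 17 in 23 and time point 12 in 13. These 2 had more empty nuclear peaks, 42 and 25, than the other 11 well-covered libraries, which had at most 8.

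**Figure D5:**
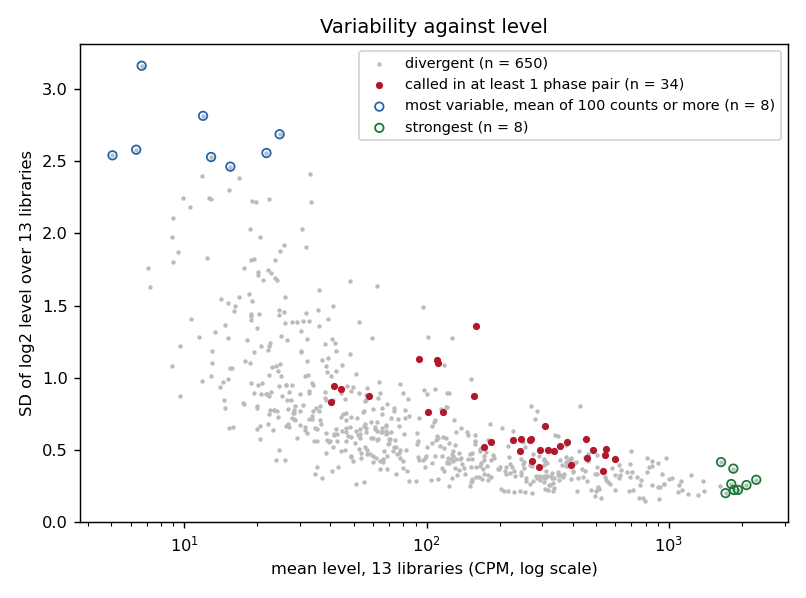
SD of log2 level over 13 libraries against mean level (CPM, log scale) for the 650 divergent peaks; filled red points are the 34 called in at least 1 phase pair, open rings the 8 strongest and the 8 most variable. Variability falls as level rises, the 8 most variable average 5.05 to 24.7 CPM, and the called peaks stand above the main cloud at middle and high levels.

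Within the highest of the 3 level classes, a set looked at after the values were seen, the largest SD was 1.36 at YNL194C-YNL193W, described above among the falls in Oxidative. Among those with a standard gene name it was 0.99 at MAE1-TFA1, shared by the malic enzyme gene and a gene for a subunit of TFIIE. It measured 23.3 to 183 CPM in Reductive Charging, with time point 17 lowest, 171 to 281 CPM in Oxidative, and 46.8 and 97.4 CPM in Reductive Building. It was not called (Reductive Building against Oxidative −1.60 ± 0.54, edgeR adjusted p = 0.145). The peak at TDH1, a glyceraldehyde-3-phosphate dehydrogenase gene, had an SD of 0.80. It stood at 313, 188, 84.1, 143 and 94.0 CPM in Oxidative against 251 to 454 CPM in Reductive Charging and 258 and 595 CPM in Reductive Building. It was not called either (Reductive Building against Oxidative 1.37 ± 0.40, edgeR adjusted p = 0.0886).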

How the data were processed

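The deposited table gives a read count per peak and library, with the peak coordinates. Per the submitters' processing notes, the authors used Trimmomatic, Bowtie2 and MACS2 with the R64 assembly. Versions, settings, duplicate handling, transposase shift and the counting step are not given in the sources used, and PCR duplicates could inflate the counts. Gene 5′ ends and names came from RefSeq for R64. Coordinates are 1-based.

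From the deposited counts, edgeR 4.0.16 (R 4.3.3) fitted a robust quasi-likelihood model with phase as the only term, TMM scaling over all 2086 peaks and Benjamini-Hochberg adjustment, with a threshold of 0.05. filterByExpr removed 0 peaks. The 5 libraries with over 10% of nuclear peaks empty were left out of the main fit. A log2 level uses a prior count of 2. DESeq2 1.42.0, limma-voom (limma 3.58.1) and other scalings, filters, link rules and library sets were alternatives, and the fit was tested on simulated data.

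Named peaks were the 8 highest and 8 lowest called fold changes per phase pair, the 8 strongest, the 8 most variable with a mean of at least 100 counts, 10 textbook pairs and members of 15 functional lists. The limit of 100 counts removed no divergent peak. Peaks with no standard gene name were not named by this rule. Members and lists were chosen with earlier results of these data known. Libraries hold 6372179 to 29314373 counts in the main fit.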

Additional observations from a re-analysis of the deposited data

Results flagged for a closer look

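In groups of 5 or 6 libraries, 11 of 108 sets of values held 1 library far from the rest by Dixon's criterion, which flags about 1 in 20 by chance. The late Reductive Charging library, time point 17, was the one in 6 of them. It stood at 3216 CPM at the YAT1 and SWH1 peak (1632 to 1780 CPM in the other 5), 2723 CPM at SKS1-RMI1 (1759 to 2084), 2337 CPM at the SOH1 and SCS3 peak (1133 to 1513), 454 CPM at TDH1 (251 to 308) and 201 CPM at HHF1-HHT1 (66.2 to 105), all above the others. It stood at 65.6 CPM at PHO81-YHB1, below the others (223 to 309).

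In Reductive Charging, FRS2-GAT1 was at 2463 CPM at time point 4 (1794 to 2005 elsewhere), HXT4-AHT1 at 125 CPM at time point 3 (51.9 to 78.3) and RPS4B-MNL1 at 307 CPM at time point 5 (221 to 248). In Oxidative, RAD59-USO1 was at 115 CPM at time point 10 (45.5 to 59.5). The ratio of median levels per kb between divergent and one-strand peaks was 1.20 at time point 3 against 1.11 to 1.14 in the other 5 Reductive Charging libraries.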

How the results depend on the processing

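No paired analysis was possible because the labels give each library a time point of its own and no replicate number that phases share. Counts of divergent peaks called are given in the order any difference, Oxidative against Reductive Charging, Reductive Building against Oxidative, Reductive Charging against Reductive Building. They were 20, 21, 10 and 13 in the main analysis, 0 in each with all 18 libraries, 69, 41, 38 and 21 by DESeq2, and 10, 11, 5 and 5 with distances from the peak midpoint. limma-voom gave 13 for the second and 24 for the third. Requiring at least 20 counts in every library gave 40 for the first and 18 for the third. Nuclear-total scaling gave 18 for the third, and fits on the compared libraries alone gave 0 for the third and 7 for the fourth. Leaving out 1 library gave 10 to 65, 1 to 35, 3 to 38 and 2 to 55. The ratio of median levels (1.37) was 1.50 with links within 250 bp, 1.30 within 1000 bp and 0.895 from the midpoint, and 1.34 to 1.39 without 1 library. The ratio per kb (1.12) was 1.19 within 250 bp and 0.898 from the midpoint, and 1.11 to 1.15 without 1 library. The ratio of lengths (1.15) was 1.17, 1.15 and 0.975 under the 250 bp, 1000 bp and midpoint links, and 1.15 with peaks near transfer RNA genes kept. The difference in SD (−0.09) was 0.0075 from the midpoint, −0.077 within 1000 bp, −0.078 with peaks near transfer RNA genes kept, −0.019 with all 18 libraries, and −0.10 to −0.070 without 1 library. With all 18 libraries 2 of 47 log2 fold changes of named peaks turned sign, HTZ1-PLB3 to 0.30 in Reductive Charging against Reductive Building and HHO1-NAN1 to −2.64 in Oxidative against Reductive Charging, and 40 lost their call. Where no construction accounts for a change, the cause was not tested. No divergent peak of the lowest of the 3 level classes was called between pairs of phases. The part of low counts in this was not tested. Only 2 libraries stand for Reductive Building, which limits that phase.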

Other observations

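Within the Oxidative phase, the called divergent peaks were farther from Reductive Charging at time points 8 to 10 than at time points 6 and 7, a split looked at after the values were seen. This held for 21 of the 21 peaks called between the 2 phases, with a median absolute log2 difference of 0.74 at time points 6 and 7 and 1.41 at time points 8 to 10. The 21 were chosen by this same contrast. Over all 650 divergent peaks it held for 429 (66.0%), with medians of 0.26 and 0.42, and over 971 one-strand peaks for 657 (67.7%), with medians of 0.31 and 0.51. Peaks of histones, TOD6, STE2 and PAI3-SIP18 are examples whose values by time point are given above. The library at time point 8 holds the fewest total counts of the 13. In nuclear peaks it holds 2882700 counts, and time point 2 of Reductive Charging holds fewer, 2073443. Whether coverage takes part in the difference was not tested.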
